A study of Mus musculus with 9 samples.

Results

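The B2m promoter was examined as a site of NLRC5 occupancy in mouse T cells. All peaks that overlapped the B2m gene or lay within 5 kb of its transcription start site (TSS) were collected from the 7 deposited peak lists, which gave 7 peaks of 8593 in all. NLRC5-bound chromatin had been enriched from bead-sorted T cells with a rabbit polyclonal antibody against NLRC5 and sequenced (ChIP-seq). The 5 WT lists, named A to E, are pseudo-replicates, that is, subsets of the reads of 1 WT library, so that their spread comes from drawing reads and holds no variation between animals. Nlrc5F/F cells, in which Nlrc5 is functional and which the study used as a biological repeat of WT, and Rfx5-/- cells, which lack the RFX5 subunit of the RFX complex, gave 1 list each. WT and Nlrc5F/F mice were on the C57Bl/6 (H2b) background, whereas Rfx5-/- mice were on a mixed Sv129/C57Bl/6 (H2b) background, so that strain and genotype cannot be told apart in that list. Mice were 6 to 12 weeks old, and chromatin of 5 mice was pooled per genotype. The study names reads from Nlrc5-/- T cells (C57Bl/6 background) as the control for peak calling, without separate settings for Nlrc5F/F and Rfx5-/-. Lists called against this shared control are not independent of each other. With 1 library per genotype no test between genotypes was possible, and the lists hold no expression values with which to check the cell type.

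B2m encodes β2-microglobulin, the invariant light chain of major histocompatibility complex class I (MHCI) molecules. It pairs with the heavy chains that are encoded in the MHC, and without it most of these heavy chains fold poorly and do not reach the cell surface. NLRC5 is a transactivator of MHCI genes that does not bind DNA by itself. It is recruited to a promoter module of an S, an X and a Y box, at which the RFX complex and ATF/CREB factors (X box) and NF-Y (Y box) assemble.

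B2m (ENSMUSG00000060802) lies on the plus strand of chromosome 2 of GRCm38, from 122147686 to 122153083. Its first exon, 122147686 to 122147804, holds 52 bp of 5′ untranslated region and 67 bp of coding sequence. The whole gene lies within the gene body of Patl2, which is transcribed from the minus strand, but the nearest exon of Patl2 is 17531 bp from the B2m TSS. The TSS of Trim69, the next gene downstream, is 13014 bp away. None of the 7 lists held a peak within 5 kb of the TSS of Patl2 or Trim69.

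The proximal promoter is shown because all the main B2m peaks covered it. It is the plus strand of chr2:122147437-122147685, up to the last base before the TSS, in the RefSeq sequence of GRCm38.p6. Capitals mark, in order, a match to the interferon-stimulated response element (ISRE), a match to enhancer A, the S box, the X box and the Y box.
B2m promoter: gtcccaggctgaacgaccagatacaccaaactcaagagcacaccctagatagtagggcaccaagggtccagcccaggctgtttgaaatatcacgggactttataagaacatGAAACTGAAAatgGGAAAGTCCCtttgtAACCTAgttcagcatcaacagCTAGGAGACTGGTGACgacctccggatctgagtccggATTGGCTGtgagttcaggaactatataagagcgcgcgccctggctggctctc

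The module, 122147576 to 122147641, is 66 bp long and lies at −110 to −45 bp from the TSS. The pattern searched was AACNT, 28 N, TGAC, 20 to 22 N and ATTGG on both strands, which takes the S box, the end of the X box and the start of the Y box in that order. These letters were chosen with the sequences of bound MHCI modules in view. Of 32817 RefSeq promoters, each from 250 bases before to 50 bases after the TSS, 9 held a match (0.0274%). These were the promoters of H2-K1 (with 2 promoters), H2-D1, H2-Q4, H2-Q6, H2-Q7, B2m, Pgam2 and Gm31679.

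The boxes of the B2m module can be set beside those of 4 MHCI promoters with high peak scores, each in the direction of its gene. Capitals mark the S, X and Y boxes.
B2m (chr2:122147576-122147641, plus strand): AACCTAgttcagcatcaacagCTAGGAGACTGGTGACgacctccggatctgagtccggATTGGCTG
H2-K1 (chr17:34000356-34000421, minus strand): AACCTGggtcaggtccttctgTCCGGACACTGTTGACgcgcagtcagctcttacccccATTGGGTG
H2-Q4 (chr17:35379480-35379545, plus strand): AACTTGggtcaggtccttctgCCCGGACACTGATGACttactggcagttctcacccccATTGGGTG
H2-Q7 (chr17:35439058-35439122, plus strand): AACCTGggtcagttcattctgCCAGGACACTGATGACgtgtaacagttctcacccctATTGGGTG
H2-T10 (chr17:36121540-36121632, minus strand): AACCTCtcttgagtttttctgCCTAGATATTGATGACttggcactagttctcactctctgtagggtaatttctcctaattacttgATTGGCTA

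Over the 30 bases of the 3 boxes, the B2m module differed from those of 7 MHCI heavy-chain genes (H2-T22, H2-T10, H2-Q7, H2-Q6, H2-Q4, H2-K1 and H2-D1) at 5 to 9 bases, with a median of 7. Only the 17 positions that the pattern leaves free could differ. The fewest differences, 5, were to H2-Q6 and H2-Q7, and the most, 9, to H2-T22. Among the 7 modules themselves, the 21 pairs differed at 0 to 10 bases, with a median of 3. B2m was not the most distant module, however. From the H2-D, H2-K and H2-Q modules it differed at 5 to 7 bases, whereas H2-T10 and H2-T22 differed from them at 7 to 10. The 21 pairs are not independent, since several of these genes are close relatives.

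The pattern fixes the other 13 box positions, namely positions 1, 2, 3 and 5 of the S box, TGAC at the end of the X box and ATTGG in the Y box, so the modules could not differ there. At the 17 free positions, the same base stood in all 8 modules at 6, of which 5 were in the X box and 1 in the Y box. At 4 positions the base of B2m occurred in none of the other 7 modules. Counting from 1 at the 5′ end of each box and giving the base of B2m first, T2C in the X box was found in all 7 others. The other 3 positions were S box position 6 and X box positions 7 and 12, where the others differed among themselves. H2-K1, for example, had A6G in the S box and G7C and G12T in the X box. Position 6 of the S box was G in the H2-D, H2-K and H2-Q genes (A6G) and C in H2-T10 and H2-T22 (A6C). In the Y box, B2m shared its base at position 6 with H2-T10 and H2-T22, whereas the other 5 had C6G. The 15 bases between the S and X boxes were also set by the pattern. B2m, H2-D1, H2-K1 and H2-Q4 had 21 bases between X and Y boxes, H2-Q6 and H2-Q7 had 20, and H2-T10 and H2-T22 had 48. Tap1, which encodes a subunit of the peptide transporter of the MHCI pathway, had no match to this fixed-letter pattern at either spacing. The study, which scored sequences against its motifs in place of fixed letters, does list a module in the Tap1 promoter.

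Upstream of the module, the B2m promoter held 1 match to an ISRE, the element bound by interferon regulatory factors (GAAA, 2 N and GAAA, on both strands), at −138 to −129 from the TSS. Such a match was present in 3.43% of the promoters. It also held 1 match to enhancer A, a site of the NF-κB type (GGG, 2 N and TTTCC, on both strands), on the reverse strand at −125 to −116 from the TSS, a match present in 1.63% of the promoters. The module and an ISRE match occurred together in 2 promoters, those of B2m and Gm31679, and an ISRE and an enhancer A match together in 22. Both searches used fixed letters, so a promoter without a match can still hold such an element. The study names ISRE and enhancer A as elements defined in classical MHCI promoters, so these counts do not set B2m apart from them.

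The shorter motifs were more common. ATTGG occurred once in the B2m promoter and in 37.4% of all promoters, and its B2m match is the Y box. TGAC occurred at 2 places, 1 of them in the X box, and in 85.2% of all promoters. TATAAA had 1 match, on the reverse strand at −151 to −146 from the TSS, and was present in 13.6% of promoters, whereas GGGCGG had no match in this window and was present in 35.6%. The plus strand also reads TATATAAG between the Y box and the TSS, a TATA-like sequence that the string TATAAA does not match. The GC content of the B2m promoter was 52.3%, against a median of 52.7% over all promoters. Its ratio of observed to expected CpG was 0.682, and 30.3% of promoters had a higher ratio.

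A peak covering the B2m TSS was present in each of the 5 WT lists and in the Nlrc5F/F list, and no B2m peak was present in the Rfx5-/- list. As the background, a peak in the gene or within 5 kb of the TSS was found for 1.59% of 21938 protein-coding genes in WT A, 1.73% in WT B, 3.65% in WT C, 2.75% in WT D and 3.16% in WT E. The share was 4.63% in Nlrc5F/F and 4.27% in Rfx5-/-. A peak in all 5 WT lists was found for 26 genes (0.119%), and 18 of them (0.082%) also had one in Nlrc5F/F cells.

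Of those 18 genes, 14 (0.0638%), among them B2m, had no peak in the Rfx5-/- list. On chromosome 17 these were H2-K1, H2-D1, H2-Q4, H2-Q6, H2-Q7, H2-T22, Tap1, Psmb9, Gm6034, Gm19684 and Gm7030. H2-T10 was not counted, as the annotation classes it as a polymorphic pseudogene. Chromosome 2 contributed B2m, and Patl2 was counted only through the same B2m peak, which lies in one of its introns. Gm17019 on chromosome 5 was the remaining gene. Neighbouring genes can share a peak, as Tap1 and Psmb9 did, so these are not 14 separate sites.

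Peak scores, as given by the authors' peak caller, were read as −log10 p-values of enrichment over the Nlrc5-/- control, a unit inferred from the lowest values. The B2m peak had a score of 87.0 in WT A, 96.7 in WT B, 86.9 in WT C, 66.5 in WT D and 82.6 in WT E. WT D had the lowest score and WT B the highest, and their ratio was 1.45. The mean was 84.0 ± 11.0 (SD, n = 5 lists of 1 library).

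In Nlrc5F/F cells the score of the B2m peak was 25.8, below all 5 WT scores and 0.297 of their median. The lists are not normalised to each other and a −log10 p-value grows with the number of reads. The study states a fixed number of reads for each pseudo-replicate but only a lower limit for the Nlrc5F/F library, and the part of depth in this difference was not tested. The Nlrc5F/F score was lower than the WT median at all 9 promoter sites compared here, where it ranged from 0.147 to 0.596 of that median, with a median of 0.325. B2m, at 0.297, was in sixth place in this order.

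Peaks were then ranked within each list. The B2m peak held rank 6 by score in each of the 6 lists in which it was present, among 459 peaks in WT A, 529 in WT B, 1436 in WT C, 1043 in WT D, 1207 in WT E and 1949 in Nlrc5F/F. The score was 14.8 to 19.4 times the median score of the same list in WT and 6.04 times in Nlrc5F/F.

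In WT, rank 6 was the last place before a drop in the scores. The B2m score exceeded that of the peak at rank 7 by a factor of 2.34 in WT A, 2.54 in WT B, 2.32 in WT C, 1.83 in WT D and 1.97 in WT E. The peak at rank 5 exceeded B2m by a factor of 1.07 to 1.41 in these lists. In Nlrc5F/F cells the factor from B2m to rank 7 was 1.38, below that of every WT list, and rank 5 exceeded B2m by 1.04.

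**Figure D1:**
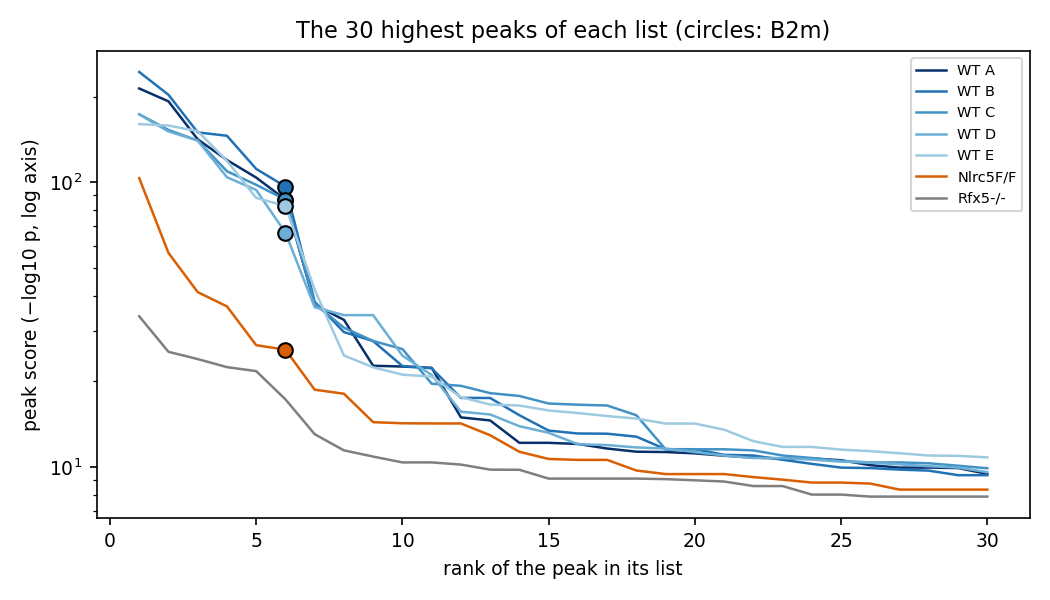
Score (−log10 p, log axis) of the 30 highest peaks of each list against their rank, 1 line per list, with the B2m peak as a circle. B2m sits at rank 6 in the 5 WT lists and in Nlrc5F/F, just above the drop in the WT curves. The Rfx5-/- curve has no B2m peak.

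The position of the peak was similar in the 6 lists. It ran from 122147189 to 122147898 in WT A, from 122147244 to 122147929 in WT B and from 122147136 to 122147933 in WT C. In WT D it ran from 122147261 to 122147938, in WT E from 122147255 to 122147954 and in Nlrc5F/F from 122147292 to 122147912. The starts of the WT peaks spread over 125 bp and their ends over 56 bp, so that the upstream border was the more variable.

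The peaks were 710 bp wide in WT A, 686 bp in WT B, 798 bp in WT C, 678 bp in WT D and 700 bp in WT E (714 ± 48.3 bp, SD, n = 5 lists), and 621 bp wide in Nlrc5F/F. The Nlrc5F/F peak was narrower than every WT peak, but it was still the second widest of its list (rank 2 by width). In WT the peak held ranks 3 to 6 by width. For comparison, the median width of all peaks was 100 to 139 bp in the WT lists and 99 bp in Nlrc5F/F.

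A core of 607 bp, 122147292 to 122147898, was common to all 6 peaks, which is 74.1% of the 819 bp covered by any of them. The core reached from 394 bp upstream to 212 bp downstream of the TSS. Of the 621 bp of the Nlrc5F/F peak, 607 bp (97.7%) lay inside all 5 WT peaks. The overlap as a share of the combined interval was 82.9 to 96.9% in the 10 pairs of WT lists and 77.8 to 91.6% in the 5 pairs of a WT list with Nlrc5F/F, so the ranges overlapped.

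Each of the 6 peaks contained the whole first exon of B2m together with 94 to 150 bp of the first intron and 394 to 550 bp upstream of the TSS. The upstream part was 61.6 to 70.0% of the peak, and no base of a Patl2 exon was covered. The peak centre lay upstream of the TSS in every list, at −142.5 bp in WT A, −99.5 bp in WT B, −151.5 bp in WT C, −86.5 bp in WT D, −81.5 bp in WT E and −84 bp in Nlrc5F/F.

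The module lay inside all 6 peaks. The centre of its X box is at −81.5 bp from the TSS. It was 61 bp downstream of the peak centre in WT A, 18 bp in WT B, 70 bp in WT C, 5 bp in WT D, 0 bp in WT E and 2.5 bp in Nlrc5F/F. In 4 of the 6 lists the centre of the peak was thus within 18 bp of the centre of the X box, and in WT A and WT C, whose peaks started farthest upstream, the distance was larger. The peaks extended 284 to 440 bp before the module and 257 to 313 bp after it. The ISRE and enhancer A matches also lay in the core, and at this width the peaks do not separate these elements from the module.

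**Figure D2:**
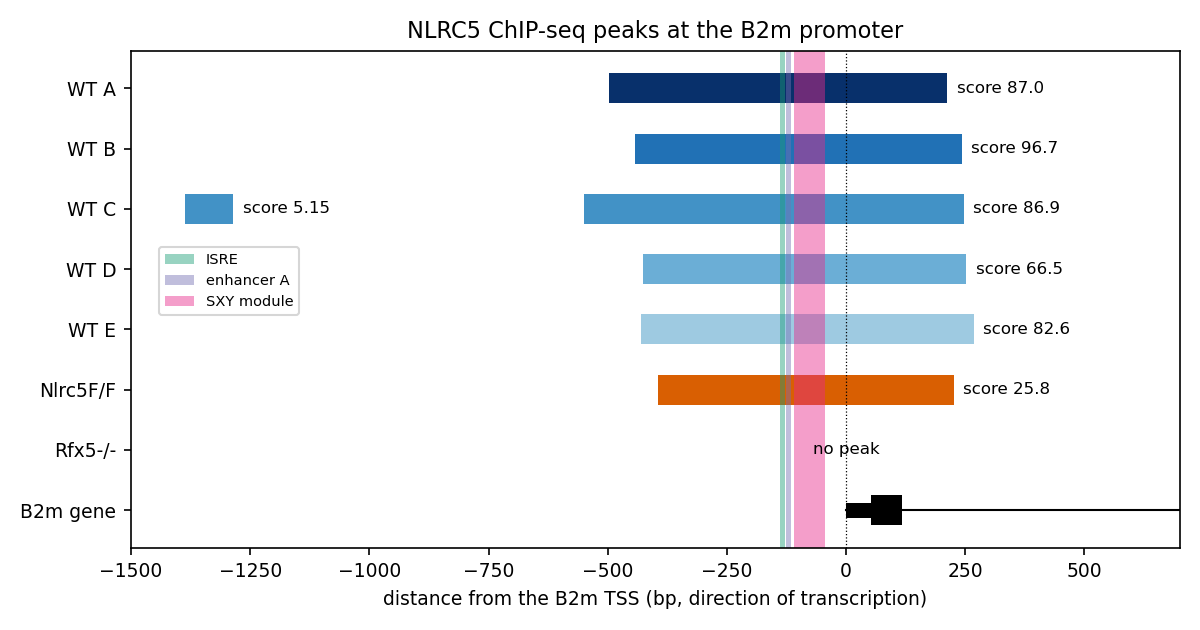
Peaks at the B2m promoter in the 7 lists, with the distance from the TSS in bp on the horizontal axis and 1 row per list. Bars are peaks with their scores, shaded bands are the ISRE and enhancer A matches and the SXY module, and in the bottom row the thin black box is the untranslated and the thick one the coding part of the first exon. The 6 main peaks start 394 to 550 bp upstream and end 212 to 268 bp downstream of the TSS, and the Rfx5-/- row is empty.

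Since the authors kept reads with a unique position only, the uniqueness of the sequence was examined. Of the 50-base windows that start within 1 kb of the TSS, 97.7% (1954 of 2001) occurred once in the genome. All 558 windows inside the core were unique. The 47 others started 615 to 676 bp downstream of the TSS, outside every B2m peak. The share was lower at H2-Q6 (42.3%), H2-Q7 (47.7%), H2-T10 (75.3%) and H2-T22 (75.3%) than at B2m. It was also lower at H2-K1 (87.5%), H2-Q4 (91.3%) and H2-D1 (96.8%), and higher at Tap1 (100%).

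B2m was the highest-scoring peak of chromosome 2 in each of the 6 lists. The next highest score on this chromosome was 10.8 in WT A, 9.28 in WT B, 7.09 in WT C, 10.4 in WT D and 7.06 in WT E. B2m exceeded it by a factor of 6.37 to 12.3. In Nlrc5F/F cells the next score was 8.81, a factor of 2.93, the lowest of the 6 lists. The chromosome held 24 to 108 peaks in the WT lists, 138 in Nlrc5F/F and 141 in Rfx5-/-.

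Apart from the peaks within 5 kb, none lay close to B2m. The nearest one was 2120 kb away in WT A, 2539 kb in WT B, 451 kb in WT C, 249 kb in WT D, 1584 kb in WT E and 747 kb in Nlrc5F/F. Of the 17 sites present in all 5 WT lists and in Nlrc5F/F, 1 was on chromosome 2. Genome-wide, the module pattern had 160 matches, of which 8 were on chromosome 2 and 12 on chromosome 17. Those under a peak in every WT list, by an overlap of at least 1 bp, were 6 (3.75%), at H2-K1, H2-D1, H2-Q4, H2-Q6, H2-Q7 and B2m, and all 6 were also under a peak in Nlrc5F/F and none in Rfx5-/-. The whole module lay inside the peak in all 6 lists at B2m, H2-D1, H2-K1 and H2-Q4, but in 5 at H2-Q7 and 2 at H2-Q6. Of the 8 matches on chromosome 2, the one at B2m was the only one under a WT peak.

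**Figure D3:**
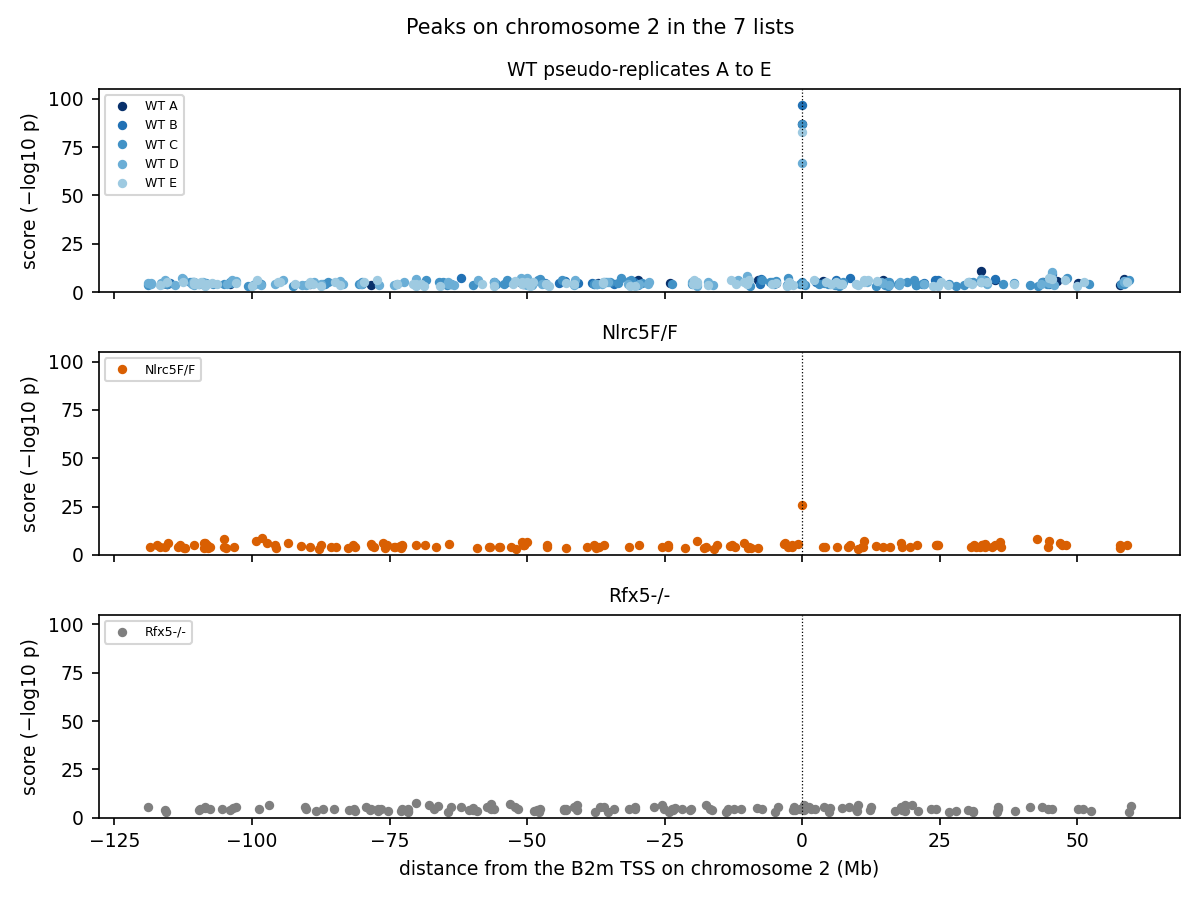
Score (−log10 p) of every peak on chromosome 2 against its distance from the B2m TSS in Mb, with the 5 WT lists in the top panel, Nlrc5F/F in the middle and Rfx5-/- at the bottom. The high points at 0 Mb are the main B2m peaks, at 66.5 to 96.7 in WT and 25.8 in Nlrc5F/F, and the other peaks, among them a minor WT C peak near 0 Mb at 5.15, reach at most 10.8. In Rfx5-/- the highest score on the chromosome is 7.87.

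In the Rfx5-/- list no peak was found within 50 kb of the B2m TSS, and the nearest one, 122418448 to 122418631, was 271 kb downstream with a score of 4.15. The lowest score of this list was 3.01, so a B2m enrichment below about this level would not be seen. The list was not short, with 1970 peaks, but its scores were low. Only 1 of its peaks reached the B2m score of Nlrc5F/F (25.8), and this peak was on the mitochondrial genome. The highest score outside it was 25.4, whereas the Nlrc5F/F list had 6 peaks at or above 25.8, the B2m peak included. Absence from the list is a statement on a calling threshold, and the read depth of the Rfx5-/- library at B2m is not known.

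B2m was next compared with 8 MHCI promoter sites on chromosome 17, each given by its highest peak within 500 bp of the TSS. None of the 9 sites had a peak in Rfx5-/- cells. Of the 17 sites present in all 5 WT lists and in Nlrc5F/F, which include these 9, 6 also had a peak in Rfx5-/-. The study lists the 9 sites as RFX5 dependent from these same data, so their absence was known beforehand. B2m was in place 6 of 9 in each WT list. Median WT scores were higher at H2-D1 (174), H2-T10 (158), H2-Q7 (142), H2-K1 (119) and H2-Q4 (98.1), and lower at H2-Q6 (32.9), H2-T22 (27.7) and Tap1 (22.5). H2-D1 and H2-K1 encode the classical heavy chains and the H2-Q and H2-T genes encode non-classical ones.

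The neighbour of B2m in this order was H2-Q4, and the score ranges of these 2 sites overlapped (66.5 to 96.7 at B2m, 88.2 to 112 at H2-Q4). Within each WT list B2m was the lower of the pair, at 0.708 to 0.937 of H2-Q4. In Nlrc5F/F cells the order was the opposite, with 25.8 at B2m and 14.4 at H2-Q4, a ratio of 1.80, and B2m was in place 5 of 9. The H2-Q4 peak held rank 5 in all WT lists and rank 9 in Nlrc5F/F, while B2m stayed at rank 6. Rank 5 in Nlrc5F/F was held by a site on chromosome 15 (75085766 to 75085912), whose ranks over the 6 lists were 5 to 11. The peaks above B2m were thus not the same ones in Nlrc5F/F. The change in order of B2m and H2-Q4 was not tested, as it rests on 1 library per genotype.

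The ranges of the other 7 sites did not overlap that of B2m in WT. B2m had 0.384 to 0.516 of the score of H2-D1, the highest site, and 0.638 to 0.795 of that of H2-K1. In Nlrc5F/F these ratios were 0.250 and 0.628, both below the WT values. The other higher sites went differently. Against H2-Q7 the ratio was 0.474 to 0.663 in WT and 0.704 in Nlrc5F/F, above the WT values. Against H2-T10 it was 0.441 to 0.569 in WT and 0.457 in Nlrc5F/F, within the WT range. Against H2-Q6, the next site below, B2m was higher by a factor of 1.95 to 3.98 in WT and 1.82 in Nlrc5F/F. At H2-Q6 the share of unique windows was 42.3%, and at H2-Q7, which scored above B2m, it was 47.7%. The part of this share in the scores was not tested.

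**Figure D4:**
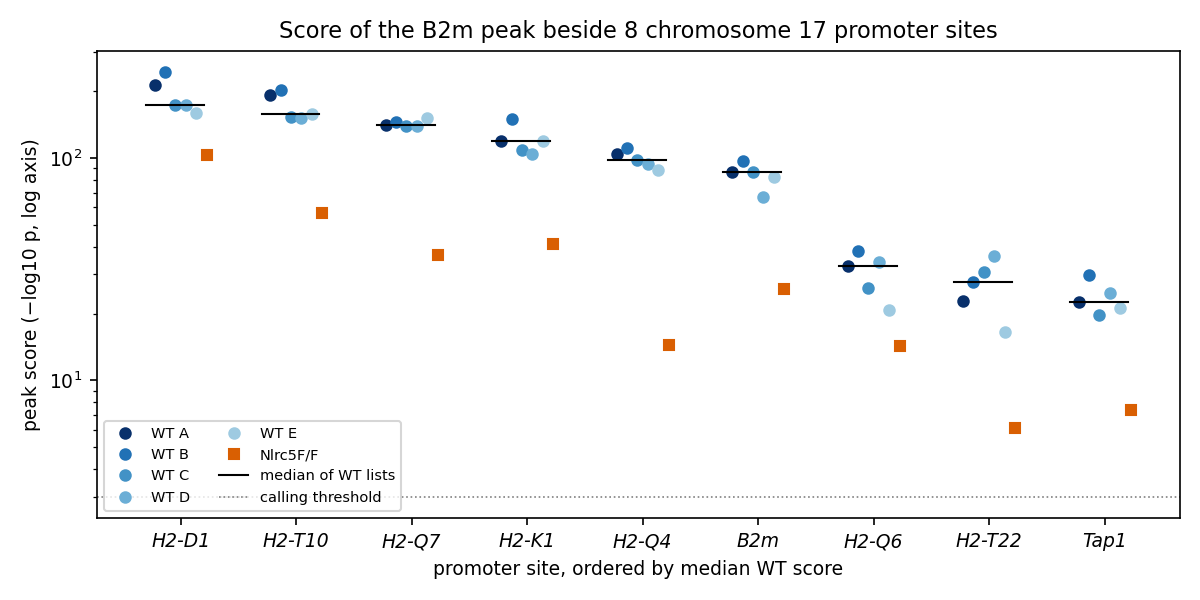
Peak score (−log10 p, log axis) at 9 promoter sites, ordered by the median of the WT lists. Circles are the 5 WT lists, squares are Nlrc5F/F, the black line is the WT median and the dotted line is the calling threshold. B2m lies below H2-Q4 in each WT list and above it in Nlrc5F/F, and is well above H2-Q6, H2-T22 and Tap1. No site has a value in Rfx5-/-.

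By width the order was different. The WT median width of 700 bp at B2m was in place 5 of 9, after H2-T10 (893 bp), H2-D1 (872 bp), H2-Q4 (717 bp) and H2-T22 (710 bp), and before H2-K1 (656 bp), H2-Q7 (406 bp), Tap1 (385 bp) and H2-Q6 (149 bp). In Nlrc5F/F the peak was narrower than the WT median at each of the 9 sites. It was 750 bp wide at H2-T10, 621 bp at B2m, 559 bp at H2-D1 and 478 bp at H2-K1. At H2-Q7 it was 299 bp, at H2-Q4 279 bp, at H2-T22 178 bp, at Tap1 159 bp and at H2-Q6 141 bp. The part of depth in these widths was not tested.

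The sites whose ranks were most like those of B2m over the 6 lists were H2-Q4, H2-K1 and H2-Q7, with mean absolute rank differences of 1.33, 2.33 and 2.67. H2-Q4 held ranks 5 to 9, and H2-K1 and H2-Q7 held ranks 3 to 4.

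Other genes of MHCI antigen presentation were looked up by a peak within 5 kb of the TSS, which in the background was found for 0.948% of protein-coding genes in WT A, 1.03% in WT B, 1.37% in WT C, 1.1% in WT D, 1.38% in WT E, 1.34% in Nlrc5F/F and 1.23% in Rfx5-/-. On chromosomes other than 17, 12 genes were examined (Calr, Canx, Pdia3, Erap1, Psmb10, Psme1, Psme2, Tapbpl, Psmb5, Psmb6, Psmb7 and Hspa5). Of these, 3 had a peak in any WT list, and none had one in all WT lists, in Nlrc5F/F or in Rfx5-/-. The share of all genes with a peak in any WT list was not computed, so the first count has no like background. Psmb5, a subunit of the constitutive proteasome, had peaks with scores of 4.05 in WT B and 3.45 in WT C. The aminopeptidase gene Erap1 had a peak with a score of 3.93 in WT E, and the chaperone gene Hspa5 one with a score of 3.39, also in WT E. These scores were close to the calling threshold of 3, whereas the lowest WT score of B2m was 66.5.

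Of 5 pathway genes on chromosome 17 (Tap1, Tap2, Tapbp, Psmb8 and Psmb9), Tap1 and Psmb9 had the same peak in all WT lists and Nlrc5F/F. Psmb8, an immunoproteasome subunit, had a peak with a score of 4.05 in WT B. B2m also pairs with class I-like heavy chains that are encoded outside chromosome 17, namely the products of Fcgrt (the neonatal Fc receptor), Hfe, Mr1, Cd1d1 and Cd1d2. None of these 5 genes had a peak within 5 kb of the TSS in any of the 7 lists. The genes of NLRC5 itself, its relative CIITA and the module-binding factors (Nlrc5, Ciita, Rfx5, Rfxap, Rfxank, Creb1, Atf1, Nfya, Nfyb and Nfyc) had none either. Such a peak was found for only 0.948 to 1.38% of protein-coding genes per list, so these absences do not set the genes apart. The 5 WT lists, as subsets of 1 library, are not separate observations.

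The seventh B2m peak was found in WT C only. It ran from 122146299 to 122146400 (102 bp), at −1387 to −1286 bp from the TSS, and was separated from the main peak by 735 bp. Its score was 5.15, at rank 323 of 1436, and the main peak of the same list scored 16.9 times higher. WT C was the WT list with the most peaks. The other 4 WT lists, drawn from the same library, held no peak there, and neither did Nlrc5F/F.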

How the data were processed

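The data are NLRC5 ChIP-seq peak lists of T cells from WT (5 pseudo-replicates), Nlrc5F/F and Rfx5-/- mice. According to the methods and labels, reads were aligned to GRCm38 by the authors using Bowtie 0.12.7, only uniquely placed reads were retained, and MACS2 2.0.10.20130520 was run against Nlrc5-/- reads, at p = 0.001 and with the smaller data set scaled to the larger. The deposited scores are −log10 p-values, a unit inferred from the lowest values, which were slightly above 3 in every list. Settings for the Nlrc5F/F and Rfx5-/- lists were not stated separately. Library depths are stated by the study as a fixed size for the WT lists and a lower limit for the other libraries. Read counts per peak are not listed, so the coverage under any 1 peak is unknown and scores carry no interval. The complete WT data and the Nlrc5-/- library were not analysed here.

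Peaks were assigned by overlap of at least 1 bp (Python 3.11.15, numpy 2.4.6). Exons and TSSs came from GENCODE, promoters from RefSeq and sequence from GRCm38.p6. Windows counted as unique were found once on either strand, without mismatches. The scans were tested on simulated data. The members and lists were chosen with earlier results of these data known. Genes named are B2m, the 8 promoter sites, listed genes with a peak, the neighbours of B2m and the 3 sites most like it in rank. Genes that share the presence pattern of B2m or hold the module were named after their values were seen. The alternatives were other windows, score thresholds, ranks, TSSs and spacings, and leaving out each WT list.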

Additional observations from a re-analysis of the deposited data

Results flagged for a closer look

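The B2m peak of WT C, 798 bp wide, stood apart from the other 4 WT lists by Dixon's criterion. The next widest peak was 710 bp, and the gap was 0.733 of the range of the group, above the critical value of 0.71. This criterion marks an occasional group by chance, and the lists are subsets of 1 library.

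The order of B2m and H2-Q4 differed between genotypes. The ratio of their scores was 0.708 to 0.937 in the 5 WT lists and 1.80 in Nlrc5F/F. This difference was not tested, because each genotype has 1 library.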

How the results depend on the processing

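Of 41 alternative values, 5 moved, 0 were reversed and 36 stayed within the limits set for a change. These limits were 1 SD of the WT lists for a value and 1.5 times for a count. For rank, whose SD was 0, and for place, any change counted as moved. The share of unique windows was held to its exact binomial interval with 50 bases, 96.9 to 98.3%. The presence of B2m in 6 lists was the same with windows of 1 and 10 kb and with scores of at least 5 or 10. The main peaks cover the TSS and score at least 25.8, so the smaller window and these thresholds could not change it. By width in place of score, the median WT rank of B2m was 5 in place of 6. Of the 32 listed genes, 6 had a peak in a WT list, against 4 with a window of 1 kb, at the limit for a count, and 2 with a score of at least 5. These counts over any WT list have no like background either. With 15 to 50 bases between X and Y boxes, 18 in place of 9 promoters held the module. Unique windows near the TSS were 96.1% with 36 bases and 100% with 100 bases, against 97.7%. Leaving out each WT list in turn gave median scores of 84.8 to 87.0, widths of 693 to 705 bp and peak centres at −121 to −93 bp from the TSS. Rank 6 and place 6 could not change in this way, because every WT list gave both. The 36 unchanged values include these fixed outcomes. No paired analysis was possible because each genotype has 1 library and the results come from no test. Depth limits what the lists show, since positions below the calling threshold are not listed.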
